A study of Arabidopsis thaliana with 3 samples.

Results

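The most abundant nuclear transcripts of young Arabidopsis thaliana leaves were taken as the 300 probe sets with the highest signal on the Col-0 array, of 22746 probe sets that are not Affymetrix controls. Probe sets annotated to plastid or mitochondrial genes were left out first, 112 in all, of which 42 were bright enough to have entered. A further 9 probe sets of separately treated genes were left out by name, and 4 of these were bright enough. The signal on the Col-0 array thus chose the members, and their high level there is not a result. Of the 300, 78 are annotated to 1 gene, 10 to several genes and 212 to no gene. The 212 could not be screened for organelle genes, so the nuclear origin holds by annotation for the other 88 only. Over all compared probe sets, 59.4% have 1 annotated gene, against 26% of the members.

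Total RNA came from leaves of 2 week old plants, with 1 array for each of 3 genotypes. MKK2 line A (titled MKK2-w.t.4, source name MKK2-EE4) and MKK2 line B (titled MKK2-EE4, source name MKK2-W.T.4) overexpress, by their labels, the MAP kinase kinase MKK2 as the wild-type or as a constitutively active protein in the Col-0 background. No probe set is named MKK2 here, so its level was not checked. The reference is untreated Col-0, the common laboratory accession. The labels contradict each other on the variant each line carries, so no direction between the variants is given. The promoter of the transgenes, the number of plants pooled and the treatment of the lines are not stated in the labels.

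With 1 array per genotype, no value has a replicate error and no test across samples could be made, so every difference here describes these arrays. The values are MAS5 signals on a linear scale. A MAS5 signal summarises the probes of a probe set and depends on how well those probes bind as well as on the transcript. The rank of a probe set is therefore a rank of signals, and a low-ranked member need not be the rarer transcript. The trimmed mean of the deposited signals was 100.01 on every array. The ratio of 3′ to 5′ signal over 6 control pairs, a sign of RNA integrity, ran from 1.15 to 4.09 in line A, from 0.966 to 3.83 in line B and from 0.816 to 3.75 in Col-0. Of 19 marker genes for leaf and other cell types, 2 have a named probe set. The root hair expansin EXPA7 had signals of 12.9 in line A, 18.6 in line B and 23.1 in Col-0, all under the floor of 25 set for dim signals, and the guard cell regulator FMA had 41.0 in line A, 52.4 in line B and 55.0 in Col-0. The mesophyll markers are not among the named probe sets, so the leaf label was not checked with them.

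In a green leaf, many of the most abundant nuclear messages serve the chloroplast. Proteins of the photosystems, the thylakoid membrane, the Calvin cycle and pigment synthesis are encoded in the nucleus, made in the cytosol and imported, while the core of each photosystem and part of the plastid ribosome are encoded in the plastid genome. Other abundant messages serve, among other things, cytosolic ribosomes, protein turnover, primary metabolism and the cell surface.

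The named members were grouped by what their products do. By the known function of their products, 27 of the 78 fall in 5 classes, named here the chloroplast classes. These are photosystem II (4 genes), thylakoid and electron transport (7), chlorophyll and plastid lipid synthesis (4), carbon fixation and photorespiration (6), and plastid ribosome and RNA (6). They follow processes and not the location of the protein. Photorespiration runs partly outside the chloroplast, and the plastid redox genes AT3G11630, ATHM2 and THX are classed with the redox enzymes. The plastid enzyme genes THIC and AT3G58610 are classed with primary metabolism. Cytosolic translation held 8 genes, the cell wall and secreted proteins 7, primary metabolism 6, redox enzymes 5, and protein turnover, transport, and calcium, stress and regulation 4 each. The remaining 13 were given no class. The classes were assigned by hand with the signals already known, and the 222 members without a single gene are in none. No such classes were made for the other probe sets, so the shares have no background. By locus tag, 27 of the 78 lie on chromosome 1, or 34.6%, against 25.8% of all named probe sets. Chromosome 2 held 11 (14.1% against 16.5%) and chromosome 3 held 15 (19.2% against 20.5%). Chromosome 4 held 11 (14.1% against 14.7%) and chromosome 5 held 14 (17.9% against 22.5%).

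Signals of the members ran from 264 to 6919 on the line A array with a median of 2404, and from 512 to 8291 on line B with a median of 2421. On Col-0, which chose them, they ran from 1614 to 7644 with a median of 2487. No member came near the floor on any array. The members are 1.32% of the compared probe sets and held 25.4% of the summed signal in line A and 26.3% in line B, against 26.9% in Col-0. The last 3 members had Col-0 signals of 1615, 1615 and 1614, and none of them has an annotated gene. The first 3 probe sets outside had Col-0 signals of 1596, 1591 and 1589, among them AT5G51110 (1591) and AT3G50685 (1589), so the limit of 300 separates no distinct group.

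Among named genes AT2G25510 had the highest Col-0 signal. It stood at 5693 in line A, 5732 in line B and 7111 in Col-0. ECS1, which encodes a cell wall protein, had 5941 in line A, 5110 in line B and 6736 in Col-0. AT2G45180, of the lipid transfer protein family, had 4942 in line A, 5307 in line B and 6148 in Col-0. SAMDC, the S-adenosylmethionine decarboxylase gene of polyamine synthesis, had 5205 in line A, 5370 in line B and 5786 in Col-0. All 4 genes were highest on the Col-0 array, the array that chose them.

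**Figure D1:**
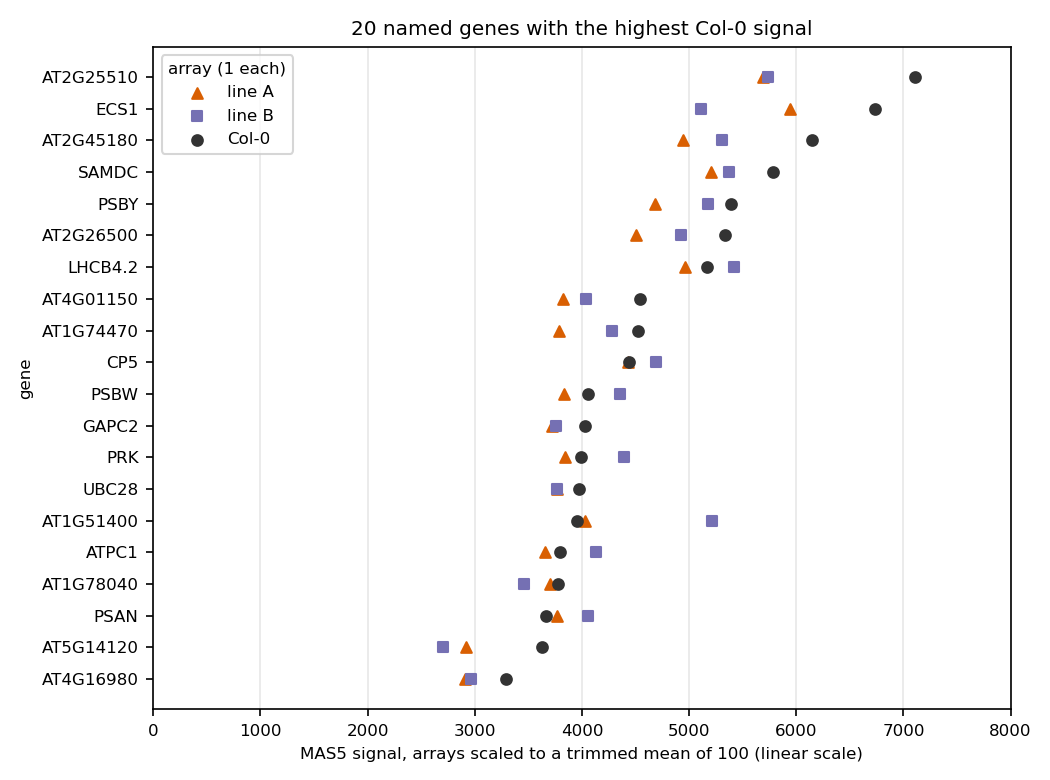
MAS5 signal (linear axis) of the 20 named members with the highest Col-0 signal on the arrays of line A (triangles), line B (squares) and Col-0 (circles), 1 array each and so without error bars. AT2G25510, ECS1 and AT2G45180 lie to the right in Col-0, while AT1G51400 lies at 4027 in line A, 5214 in line B and 3956 in Col-0.

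The signals were steady over the 3 arrays. The ratio of the highest to the lowest of a member's 3 signals had a median of 1.14, and 254 of the 300 members, or 84.7%, stayed within 1.25-fold. Among the 5093 other probe sets with a signal of at least 100 on every array the median was 1.22, and 57.8% stayed within 1.25-fold. Over all compared probe sets the median was 1.12, a little under that of the members, where signals under the floor of 25 were set to it and so count as equal. A ratio of 1.5-fold or more was reached by 10 members, or 3.33%, against 12% of all compared probe sets and 12.6% of those other bright ones. A ratio of 2-fold or more was reached by 3 members, against 2.77% of all compared probe sets. The median ratio was 1.13 in the first 100 members by Col-0 signal, 1.13 in the second 100 and 1.16 in the third 100, so large ratios, more than typical ones, differed by rank. In the first 100 members by Col-0 signal none reached 1.5-fold and 91 stayed within 1.25-fold, in the second 100 there were 2 and 83, and in the third 100 there were 8 and 80. Dim and bright probe sets differ in measurement noise, and what part of this order that noise makes was not tested. The deposited values carry no saturation flags either, so a limit of the scanner at the top of the range could not be looked for.

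**Figure D2:**
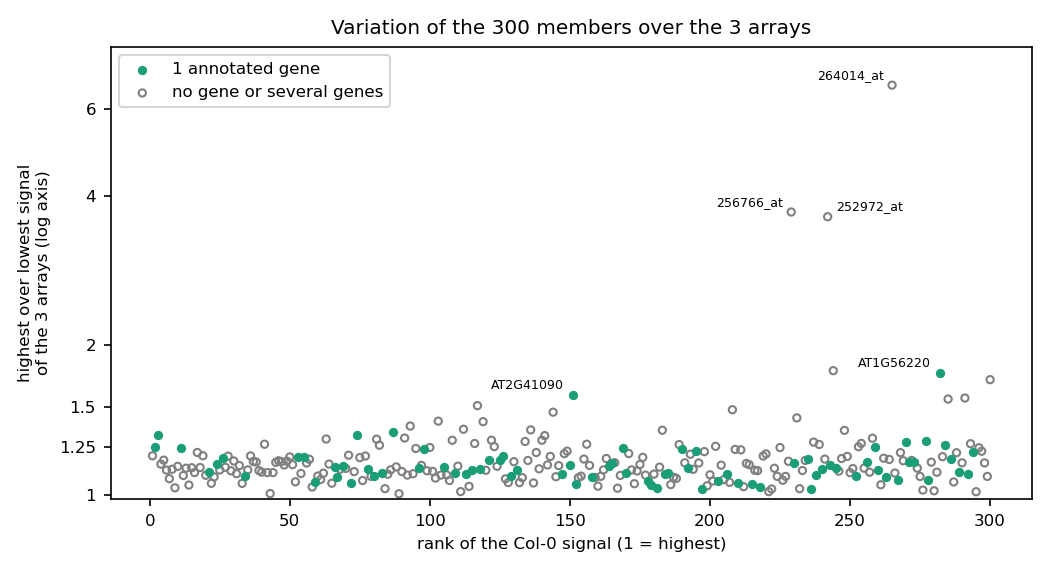
Highest over lowest signal of the 3 arrays (log axis) against the rank of the Col-0 signal for the 300 members, filled where the probe set has 1 annotated gene. Most points lie under 1.25, and the 3 points above 2 are probe sets without an annotated gene at ranks 229, 242 and 265.

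The 5 named members with the smallest spread came from unlike functions. APA1, a vacuolar aspartic protease gene, had signals of 2201 in line A, 2128 in line B and 2231 in Col-0. DI19, a drought-induced zinc finger gene, had 2272 in line A, 2204 in line B and 2199 in Col-0, and AT3G49910, which encodes cytosolic ribosomal protein L26, had 1893 in line A, 1948 in line B and 1929 in Col-0. AT1G53210, the sodium/calcium exchanger gene NCL, had 1998 in line A, 2068 in line B and 2021 in Col-0. AT1G09310 had 2165 in line A, 2181 in line B and 2119 in Col-0. The highest signal of each was at most 1.05-fold above its lowest.

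Most members kept their place when the same rule was applied to the other arrays. Of the 300, 272 (90.7%) were also among the 300 brightest of line A and 268 (89.3%) among those of line B, and 260 were in all 3 lists. Ranks of the members correlated across probe sets with Spearman's rho of 0.953 between line A and Col-0 and of 0.940 between line B and Col-0. The 300 points share their probes and the choice by Col-0, and they are not replicates. The members that left the list of line A include 8 named genes and those that left the list of line B 9. The ranks of AT1G56220 were 631 in line A, 574 in line B and 282 in Col-0, and those of AT2G41090 were 152 in line A, 325 in line B and 151 in Col-0. The probe set 264014_at had ranks of 2578 in line A, 1282 in line B and 265 in Col-0.

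Probe sets that took their places are, by the same rule, no members, and the named ones among them were picked for mention after their values were seen. In line A 28 entered, 10 of them named, and in line B 32 entered, 11 of them named. AT4G27280, a calcium-binding EF-hand protein gene, had signals of 3123 in line A, 2339 in line B and 602 in Col-0, and ranks of 94 in line A, 160 in line B and 1015 in Col-0. TET8, a tetraspanin gene, had 1696 in line A, 1434 in line B and 801 in Col-0. SRC2, known as a cold-regulated gene in soybean, had 2684 in line A, 2024 in line B and 1523 in Col-0. A list chosen on 1 array leaves out, by its construction, probe sets that are high only on the others.

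Each line was then set against Col-0 to describe how the members' signals differ. These ratios have the choosing signal in the denominator, which by itself favours ratios under 1, and both comparisons use the same Col-0 array. In line A no member was 2-fold or more higher than in Col-0, where 1.4% of all compared probe sets were, and 2 were 2-fold or more lower, where 0.391% were, or 1.79% either way. In line B none was higher, where 0.941% were, and 2 were lower, where 0.536% were, or 1.48% either way. At 1.5-fold, 1 member of line A was higher, where 3.31% of all compared probe sets were, and 4 were lower, where 3.92% were, or 7.23% either way. Of line B none was higher at 1.5-fold, where 3.08% were, and 8 were lower, where 3.12% were, or 6.2% either way. The median log2 ratio was -0.09 in line A, a ratio of 0.942, and -0.02 in line B, a ratio of 0.984. It was -0.02 and -0.03 among the other probe sets with a signal of at least 100 on every array. When the 300 were chosen on the line A array instead, the median of line A over Col-0 was -0.06, and 6 probe sets were 2-fold or more higher and none lower. For line B over Col-0 that list had 4 higher and 1 lower. When they were chosen on the line B array, 3 were higher and none lower for line A over Col-0, and 4 higher and none lower for line B over Col-0. Quantile normalization brought the median of line A over Col-0 near 0, with 52.7% of the members below 0, against 77.3% before, so the general lowering of line A depends on the scaling.

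The members furthest from Col-0 have no annotated gene. The probe set 264014_at had a signal of 264 in line A, 512 in line B and 1771 in Col-0, so line A was 6.70-fold and line B 3.46-fold below Col-0. The probe set 252972_at had 521 in line A, 989 in line B and 1896 in Col-0, so line A was 3.64-fold and line B 1.92-fold lower than Col-0. Both lines were low for these probe sets, line A more so. The probe set 256766_at was low in line B alone, with 1796 in line A, 525 in line B and 1950 in Col-0. The only member 1.5-fold or more above Col-0 was the probe set 250358_at, with 2573 in line A, 2149 in line B and 1650 in Col-0, 1.56-fold higher in line A. These 4 are given by their probe set names because the annotation used here names no gene for them.

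Among named members AT1G56220, of the dormancy and auxin-associated family, stood furthest below Col-0 in both lines. Its signals were 952 in line A, 997 in line B and 1677 in Col-0, so line A was 1.76-fold and line B 1.68-fold lower. AT2G41090, which encodes a calmodulin-like calcium-binding protein, had 2418 in line A, 1562 in line B and 2481 in Col-0. Line A lay near Col-0, and line B 1.59-fold below it. AT5G14120, a transporter gene of the major facilitator family, had 2920 in line A, 2705 in line B and 3625 in Col-0. GME, an epimerase gene of ascorbate and cell wall sugar synthesis, had 1378 in line A, 1486 in line B and 1759 in Col-0, so line A was 1.28-fold and line B 1.18-fold lower. AT2G25510, AT2G45180 and AT5G44580 were the other members of the 6 furthest below Col-0 in both lines, at -0.32, -0.32 and -0.25 on the log2 scale for line A over Col-0, and at -0.31, -0.21 and -0.32 for line B over Col-0. AT3G16370, a GDSL lipase gene, stood at -0.29 for line A over Col-0 and at -0.14 for line B over Col-0.

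Differences above Col-0 were smaller. AT5G18600, a glutaredoxin gene, had signals of 1997 in line A, 2100 in line B and 1665 in Col-0, so line A was 1.20-fold and line B 1.26-fold higher. AT1G49500 had 2072 in line A, 2176 in line B and 1894 in Col-0. THX, the plastid thioredoxin x gene, had 1764 in line A, 1813 in line B and 1633 in Col-0. AT1G66100, a thionin gene, AT5G15200, which encodes cytosolic ribosomal protein S9, and AT1G11860, which encodes the T-protein of glycine decarboxylase, were above Col-0 by 0.14, 0.12 and 0.08 on the log2 scale in line A, and by 0.07, 0.09 and 0.15 in line B. All of these lie within the central 95% of the other bright probe sets, between -0.58 and 0.99 for line A over Col-0 and between -0.62 and 0.81 for line B over Col-0. The central 95% of the members was narrower, from -0.43 to 0.21 for line A and from -0.60 to 0.30 for line B. Of these genes, AT5G18600 lay above that range in both lines. AT1G23130 had 2114 in line A, 1896 in line B and 1820 in Col-0. PRXR1, a class III peroxidase gene, had 2560 in line A, above the 2288 of Col-0, and 2060 in line B, below it.

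**Figure D3:**
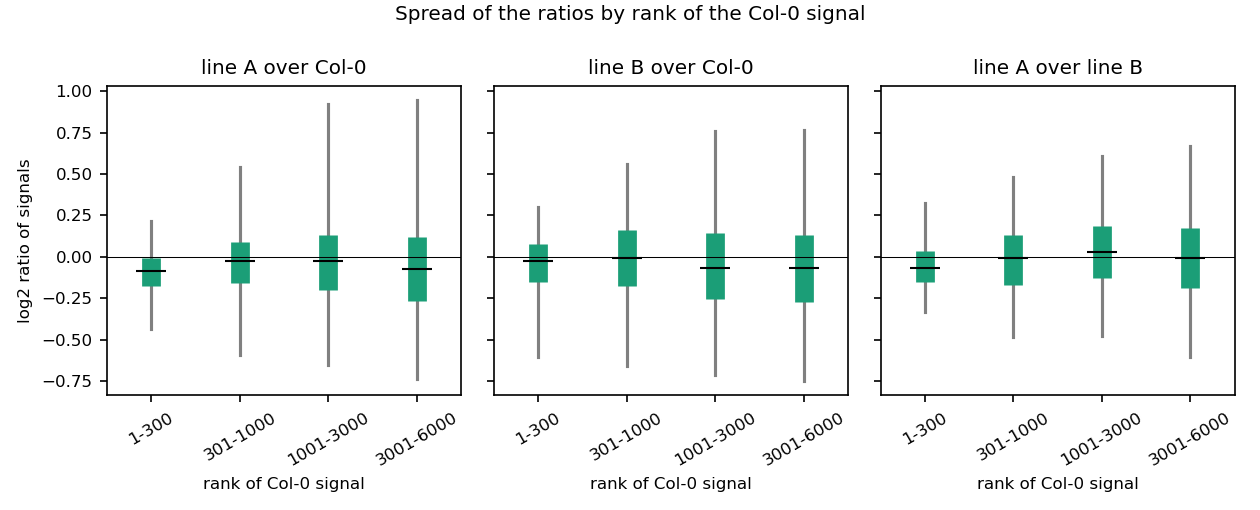
Log2 ratio of signals for line A over Col-0, line B over Col-0 and line A over line B, by rank of the Col-0 signal among eligible probe sets. Dashes mark medians, boxes the middle 50% and lines the middle 95% of probe sets, which is spread over probe sets and not a replicate error; the members (ranks 1 to 300) have the shortest lines in each panel.

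The comparison of line A with line B does not use the Col-0 array that chose the members. Here 1 member, the unnamed 256766_at, was 2-fold or more above line B (3.42-fold), where 0.585% of all compared probe sets were, and none was 2-fold or more below it, where 0.18% were. Either way that is 0.333% of the members and 0.765% of all compared probe sets. At 1.5-fold, 2 members were higher, where 2.34% of all compared probe sets were, and 3 were lower, where 2.42% were, or 4.76% either way. The middle 95% of the members lay between -0.33 and 0.32 on the log2 scale, and that of the other bright probe sets between -0.49 and 0.59. The next 700 probe sets by Col-0 signal lay between -0.48 and 0.48. The lines thus differed less at the members than at less bright probe sets, as a description of 2 arrays. The median log2 ratio of the members was -0.07, with 202 of 300 lower in line A, while it was 0.01 among the other bright probe sets. In the first 100 members 80 were lower in line A. Under quantile normalization the median was -0.013 and 53% of the members were lower.

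The chloroplast classes gave 27 of the 52 named members whose signal in line A was below that of line B. All 27 genes of the 5 chloroplast classes lay on that side (25 under quantile normalization), with a median log2 ratio of -0.18, a 1.13-fold difference, and a range from -0.37 to -0.04. Among the other 51 named members 25 were lower and 26 higher, with a median of 0.00025. The 27 include photorespiration genes, and the other 51 include plastid redox genes. Of these, AT3G11630 stood at -0.26, ATHM2 at -0.03 and THX at -0.04. The other 51 also hold the plastid enzyme genes THIC, at 0.19, and AT3G58610, for ketol-acid reductoisomerase, at 0.02, both higher in line A. AT3G58610 was picked for mention after its values were seen. The split is thus that of classes made by hand with the signals known, and not of all genes with a plastid product. Over all 300 members 67.3% were lower in line A. Line A was the lowest of the 3 arrays for 22 of the 27 genes, against 20 of the other 51 named members and 167 of all 300. Line B was the highest for 21 of the 27, against 14 of the 51 and 112 of the 300. Each single difference was small: none reached 1.5-fold and 2 reached 1.25-fold. Loess centring left all 27 lower in line A with a median of -0.11, and the median under quantile normalization was -0.098. Under these settings 17 and 16 of the other 51 were lower. Each line has 1 array, so a difference between plants, leaves or time of harvest and a difference between lines cannot be told apart.

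**Figure D4:**
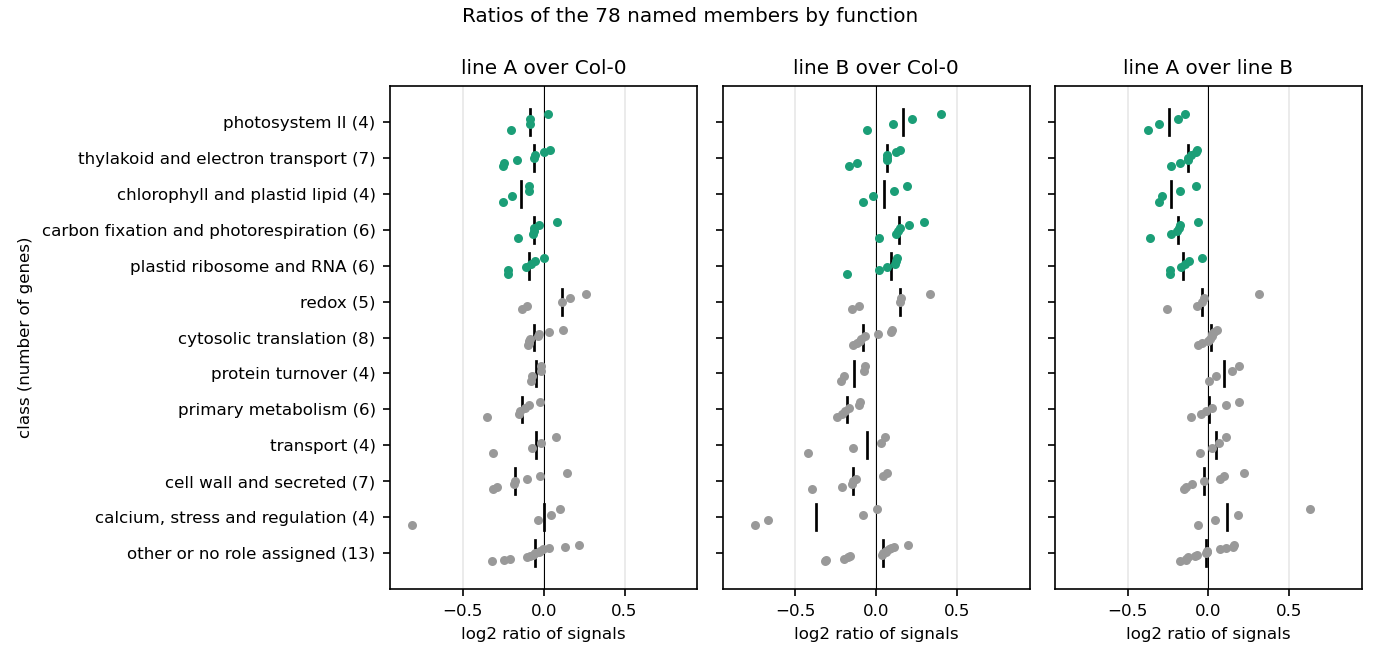
Log2 ratio of signals of the 78 named members by class, with 1 point per gene and a bar at the class median, for line A over Col-0, line B over Col-0 and line A over line B; green marks the 5 chloroplast classes. In the panel of line A over line B every green point lies left of 0, between -0.37 and -0.04 (25 of 27 under quantile normalization), and the grey points of the other classes lie on both sides.

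All 4 photosystem II genes were lower in line A than in line B, with a class median of -0.25, or -0.16 under quantile normalization and -0.18 under loess centring. AT1G51400, which encodes a small photosystem II protein, had signals of 4027 in line A, 5214 in line B and 3956 in Col-0. It was 1.29-fold lower in line A than in line B. PSB27, an assembly factor gene of photosystem II, had 3088 in line A, 3823 in line B and 3271 in Col-0. PSBW, which encodes a small subunit, had 3831 in line A, 4359 in line B and 4061 in Col-0. PSBY, for another small membrane protein of the photosystem, had 4683 in line A, 5177 in line B and 5392 in Col-0. For 3 of these 4 genes line B lay above Col-0, as it did for 40 of the 78 named members.

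The 7 other thylakoid genes were also lower in line A than in line B, 5 of them under quantile normalization. The class median was -0.13, but -0.025 under quantile normalization and -0.044 under loess centring. LHCB4.2, which encodes the antenna protein CP29, had signals of 4963 in line A, 5421 in line B and 5166 in Col-0. PSAN, a lumenal subunit of photosystem I, had 3771 in line A, 4059 in line B and 3663 in Col-0. ATPC1, the gamma subunit of the plastid ATP synthase, had 3657 in line A, 4129 in line B and 3798 in Col-0. AT2G26500, the PetM subunit of the cytochrome b6f complex, had 4508 in line A, 4921 in line B and 5338 in Col-0. AT4G01150, a thylakoid curvature protein, had 3819 in line A, 4035 in line B and 4541 in Col-0. These last 2 were highest in Col-0, unlike LHCB4.2, PSAN and ATPC1, which were highest in line B.

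Of the pigment genes, CHLM, the magnesium-protoporphyrin IX methyltransferase gene of chlorophyll synthesis, had 1884 in line A, 2331 in line B and 2155 in Col-0. AT1G74470, the geranylgeranyl reductase gene that supplies the side chain of chlorophyll, had 3790 in line A, 4278 in line B and 4520 in Col-0. LIL3:2, a light-harvesting-like protein gene, had 1954 in line A, 2058 in line B and 2082 in Col-0, and AT5G19940, of the plastid fibrillin family, had 1522 in line A, 1856 in line B and 1623 in Col-0. Line A was the lowest array for all 4.

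In carbon metabolism all 6 genes had a higher signal in line B than in Col-0, where 40 of the 78 named members and 130 of all 300 did. PRK, the phosphoribulokinase gene of the Calvin cycle, had 3839 in line A, 4389 in line B and 3995 in Col-0. SBPASE, the sedoheptulose-bisphosphatase gene of the same cycle, had 2787 in line A, 3278 in line B and 2848 in Col-0. HPR, the hydroxypyruvate reductase gene of photorespiration, had 2998 in line A, 3405 in line B and 3126 in Col-0. AT1G32470, which encodes the H-protein of glycine decarboxylase, had 1653 in line A, 2122 in line B and 1730 in Col-0, and stood 1.28-fold lower in line A than in line B. Line B over Col-0 had a median log2 ratio of 0.14 in this class. Line A over Col-0 had one of -0.06 with 5 of 6 genes below 0, but 2 of 6 under quantile normalization or loess centring.

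Genes of plastid and cytosolic ribosomes had unlike medians between the lines. The 6 genes of the plastid ribosome and RNA class had a median log2 ratio of -0.16 for line A over line B. AT1G29070, for plastid ribosomal protein L34, had 2862 in line A, 3217 in line B and 2971 in Col-0. AT2G43030, for plastid L3, had 2749 in line A, 2988 in line B and 2741 in Col-0, and AT5G65220, for plastid L29, had 2066 in line A, 2287 in line B and 2178 in Col-0. Line B was highest for all 3. The 8 genes of cytosolic translation had a median of 0.01 and a range from -0.07 to 0.05. AT5G20290, for cytosolic ribosomal protein S8, had 2840 in line A, 2738 in line B and 3028 in Col-0. AT3G09200, for ribosomal protein P0, had 2226 in line A, 2192 in line B and 2375 in Col-0, and AT5G19510, for a subunit of elongation factor 1B, had 2113 in line A, 2103 in line B and 2243 in Col-0. The highest of the 3 arrays was at most 1.11-fold above the lowest for every gene of cytosolic translation. A difference between the 2 classes beyond array noise was not tested.

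Redox genes were mixed. AT3G11630, a plastid 2-Cys peroxiredoxin gene, had 2590 in line A, 3098 in line B and 2783 in Col-0, and the plastid thioredoxin genes ATHM2 and THX had log2 ratios of -0.03 and -0.04 for line A over line B, nearer 0 than the median of all members. Under loess centring ATHM2 stood at 0.0063. The glutaredoxin gene AT5G18600 stood at -0.07. PRXR1, which acts outside the plastid, had a 1.24-fold higher signal in line A than line B had.

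The named members furthest above line B in line A came from other classes. AT2G41090 led the named ones, 1.55-fold higher in line A. ECS1 had a log2 ratio of 0.22, and AT4G16190, a papain-type cysteine protease gene, and THIC, a thiamine synthesis gene, had 0.19 each. AT1G51200, which encodes an A20/AN1 zinc finger protein, had 0.18. All 4 genes of protein turnover lay below Col-0 in both lines, where 77.3% of all members did in line A and 56.7% of them in line B. Under quantile normalization or loess centring 1 of the 4 did so in line A. UBC28, a ubiquitin-conjugating enzyme gene, was level between the lines, with 3768 in line A, 3767 in line B and 3973 in Col-0.

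Over all 300 members, 77.3% lay below Col-0 in line A and 56.7% did in line B, and counts of a class are to be read against these shares. All 6 genes of primary metabolism had lower signals in both lines than in Col-0 (5 in line A under quantile normalization or loess centring), with class medians of -0.13 for line A and -0.18 for line B on the log2 scale, in comparisons whose denominator chose the members. The median for line A was -0.045 under quantile normalization and -0.050 under loess centring. GAPC2, the cytosolic glyceraldehyde-3-phosphate dehydrogenase gene of glycolysis, had 3721 in line A, 3757 in line B and 4031 in Col-0, and cICDH, the cytosolic isocitrate dehydrogenase gene, had 2192 in line A, 2037 in line B and 2331 in Col-0. Of the 7 genes of the cell wall and secreted class, 6 lay below Col-0 in line A, or 4 after quantile normalization, and line B had 5 below Col-0, both near the shares over all members. The class median for line A over Col-0 was -0.18, but -0.0072 under quantile normalization and -0.083 under loess centring. AT1G78040, of the Ole e 1 family, had 3706 in line A, 3463 in line B and 3772 in Col-0, and AT4G16980, an arabinogalactan protein gene, had 2910 in line A, 2966 in line B and 3292 in Col-0. For AT4G16980 a second probe set gave 17.7 in line A, 28.8 in line B and 25.98 in Col-0. Since probe sets bind differently, these values are not set against each other.

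Of the 4 bright probe sets left out by name, 3 belong to photosynthesis genes. RCA, the Rubisco activase gene, had signals of 5172 in line A, 5323 in line B and 5899 in Col-0, LHCB4.1, another CP29 gene, had 5080 in line A, 5838 in line B and 5384 in Col-0, and PSAE-1, of photosystem I, had 4841 in line A, 5193 in line B and 4324 in Col-0. All 3 were lower in line A than in line B, by 1.03-fold, 1.15-fold and 1.07-fold. These values are given without quantile normalization or loess centring, so whether the directions hold under them was not looked at. The median of the thylakoid class moved from -0.13 to -0.025 and -0.044 under those settings. The remaining one, AT3G22240, went the other way, with 3909 in line A, 1342 in line B and 4485 in Col-0. Its log2 ratio was 1.54 for line A over line B and -1.74 for line B over Col-0.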

How the data were processed

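Leaf RNA was measured on 3 arrays, 1 per genotype. The authors deposited each intensity as a MAS5 signal, with MAS5 named in the submitters' processing notes. The labels state no software version, no scanner setting and no detection call. Each array was scaled to a mean of 100 after trimming 2% at each end, and signals under 25 were set to 25 for ratios. Of 22810 probe sets, 64 controls were left out. Probe sets were named through the platform annotation and the RefSeq gene table (TAIR10.1). No coordinates are printed because the chip's build is not given. Called means 2-fold or more. The array number limits the precision.

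Members and gene classes were chosen with earlier results of these data known, and classes were assigned by hand from known functions, since the tables hold no descriptions. Named genes are the 20 with the highest Col-0 signal, the 3 highest of each class, the 6 furthest each way in each comparison and in both lines, and the 5 steadiest. Genes outside this rule are described as picked later. Promoter and protein sequences were not used here. Alternatives were other scalings, floors, thresholds and choices of members. The counting was tested on simulated data. Python 3.11.15, numpy 2.4.6, pandas 2.3.3 and statsmodels 0.14.6 were used.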

Additional observations from a re-analysis of the deposited data

How the results depend on the processing

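No paired analysis was possible because each genotype has 1 array, and for the same reason no array could be left out in turn. Counts of members 2-fold or more apart (2 for line A over Col-0, 2 for line B over Col-0, 1 for line A over line B) were unchanged without rescaling, with quantile normalization, with loess centring, with floors of 10 and 50, with a pseudocount of 16, without suffixed probe sets, at a threshold of 3-fold and, as a setting added after seeing the data, relative to the median of bright probe sets. A threshold of 1.5-fold gave 5, 8 and 5. The 100 brightest gave 0, 0 and 0, and the 1000 brightest 9, 11 and 4. Choosing the 300 by the mean of the 3 arrays gave 1, 1 and 0, on line A 6, 5 and 1, and on line B 3, 4 and 0. Members with 1 annotated gene, and those annotated to nuclear genes (added after seeing the data), gave 0, 0 and 0. The smaller sets hold fewer probe sets, and the cause of the other moves was not tested. Medians moved by less than 0.1 on the log2 scale in every setting. The main medians of -0.09, -0.02 and -0.07 are themselves smaller than that limit, so a move to 0 would also have passed. That of line A over Col-0 came near 0 under quantile normalization. The median of line B over Col-0 changed sign: it was 0.018 for the list chosen on line B, 0.009 for members with 1 annotated gene and 0.0064 relative to the bright median. Exchanging the variant names turns only the direction between variants. The motif and protein length comparison was not run, since no sequences were used here. Of 177 ratios of named genes, 29 moved by 0.1 or more under quantile normalization and none under loess centring. No named gene was 2-fold or more apart, so there was no call among them that could change sides.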

Other observations

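The brightest members also differed in the annotation they carry and in the order of the 3 arrays. Of the 300, 26 (8.67%) are probe sets whose suffix marks possible binding of several genes, against 4.66% of all compared probe sets. Of the 26, 24 (92.3%) stayed within 1.25-fold over the 3 arrays, against 84.7% of all members. Line B was highest and line A lowest for 77 members (25.7%), against 13.8% of the other probe sets with a signal of at least 100 on every array. Col-0 was highest and line A lowest for 90 members (30%), against 18.3%, in a list that the Col-0 signal chose. These orders were counted without quantile normalization, under which fewer members were lower in line A than in either other array.

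The 212 members without an annotated gene had a median log2 ratio of -0.08 for line A over line B, with 149 lower in line A, and the 78 named members one of -0.07, with 52 lower. All 3 members that differed 2-fold or more between any of the arrays are among the 212, which are 70.7% of the members.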
